A study of Mus musculus with 8 samples.

Results

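Dorsal skin of wild-type mice was described here from the 4 wild-type libraries of a series of 8 RNA-seq libraries. The members were chosen by the genotype label alone, and the 4 libraries of the other genotype, a Tph1 knockout, were not used. The mice were 3 months old, untreated as far as the labels say, and carried no transgene or targeted allele named in the labels. Strain, sex, litter, body site within the dorsal skin and hair cycle stage are not given, and nothing in the labels ties each library to its own mouse. The SD values below therefore measure the spread between these 4 libraries, which may be technical in part. Total RNA was taken from whole dorsal skin with no sorting, so each library mixes epidermis, hair follicles, dermis, fat and whatever lay beneath them. In such bulk samples, fewer cells of a type and less RNA per cell cannot be told apart.

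Mammalian skin is a layered organ. Basal keratinocytes sit on the basement membrane and divide, their daughters move up through the spinous and granular layers, and the flattened cells of the cornified layer form the barrier to water loss. Hair follicles and sebaceous glands reach down from the epidermis into a collagen-rich dermis, below which mouse skin has a layer of white fat and a thin sheet of skeletal muscle, the panniculus carnosus. Each of these compartments makes characteristic proteins, so the level of its marker genes is a reading of its RNA in the mixture.

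Levels are given in TPM, which divide reads by transcript length and scale every library to the same total, so that genes can be compared with each other. The share of a gene list is the percent of a library's expected counts, the estimated reads per gene, that its members hold. A share of a list is not a share of cells. Values of the 4 libraries are listed in the order of replicates 1, 2, 3 and 4, which are names only. Errors are SD with n = 4 unless another is stated. Counts of list members by their highest or lowest library are to be read beside a background. It is the 1458 protein-coding genes, described near the end, that differed at least 2-fold between libraries. List members were counted with no such limit. Replicates 1, 2, 3 and 4 were highest in 49.6%, 32.6%, 14.6% and 3.16% of the background genes. They were lowest in 6.79%, 22.5%, 38.3% and 32.4%.

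The libraries held 24678638, 23108690, 20531601 and 23362109 expected counts, a mean of 22.92 M ± 1.73. At this depth the 95% exact binomial interval of a list's share was never wider than 0.019 percentage points on either side, which covers counting error only. Of 55488 genes in the tables, 27300 had a count in at least 1 library and 13466 reached a TPM of 1 in all 4. Protein-coding genes held 93.9% ± 1.52 of the counts. Across the 16746 genes at a TPM of at least 1 in any library, the Pearson correlation of log2(TPM + 1) between pairs of libraries lay between 0.933 (replicates 2 and 3) and 0.961 (replicates 2 and 4). These correlations are across genes, which are not independent replicates. Replicate 3 stood apart by its low skeletal muscle and high ribosomal RNA and basal keratin levels, and replicate 1 by its high collagen levels. Both are described where they bear on a result.

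The sequencing was spent on few genes. The 30 genes with the highest mean TPM held 17.2% ± 3.04 of all expected counts, with 15.2% in the lowest library and 21.7% in the highest. In the 4 libraries, 50% of the counts came from 712, 503, 599 and 408 genes. At a mean TPM of at least 1000 there were 159 genes, and at a mean of at least 100 there were 1192. Of the 30 highest, 7 were encoded by the mitochondrial genome, 6 were nuclear copies of mitochondrial genes, 8 were skeletal muscle genes and 2 were keratins. The other 7 were Krtdap, Eef1a1, Tpt1, Rplp1, Apoe, Aldoa and a ribosomal RNA gene on chromosome 17.

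The skeletal muscle genes among the 30 were Acta1, the actin of the thin filament, the troponins Tnnt3, Tnnc2 and Tnni2, the creatine kinase Ckm, the calcium pump Atp2a1 and the myosin light chains Myl1 and Mylpf. Eef1a1, the elongation factor that brings transfer RNA to the ribosome, stood at 5245, 5342, 6880.3 and 4292 TPM. Apoe, which carries lipid between cells, stood at 3571, 5323, 4660.1 and 2678 TPM. Aldoa, an enzyme of glycolysis that muscle holds in large amounts, stood at 5692, 12213, 2719 and 9367 TPM. Among these 3, Aldoa had the widest range between libraries, and it followed the order of the muscle genes given below. The ribosomal RNA gene (CT010467.1, chr17:39846353-39848827, minus strand, GRCm38) was at 3609, 6444, 20677 and 4774 TPM, and replicate 3 lay far above the other libraries. All annotated ribosomal RNA genes together held 0.452%, 0.826%, 2.92% and 0.683% of the counts.

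Mitochondrially encoded genes held 6.504%, 4.19%, 4.83% and 8.399% of the counts. The highest was mt-Co1, a subunit of cytochrome c oxidase, at 24753, 16931, 16803 and 28246 TPM. It was followed by mt-Atp8, a subunit of ATP synthase, at 23964, 5045, 8452 and 19703 TPM, and by mt-Cytb, of complex III, at 13093, 9678, 9046 and 15142 TPM. Replicates 1 and 4 were the higher libraries for all 3 of these genes. Between chr1:24612407 and chr1:24616197 (GRCm38), on the minus strand, lay 6 unprocessed pseudogenes with 99.7% to 100% identity to mitochondrial genes over the aligned bases. They held a further 3.33%, 1.99%, 2.84% and 4.59% of the counts.

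Gm28661, the copy of mt-Co2, was the gene with the highest mean TPM in this skin, at 24537, 15418, 18893 and 29045. The counts of each pair were divided unevenly. The copies held 92.7% to 99.3% of the counts of the pairs formed with mt-Co2, mt-Atp6 and mt-Co3, and 9.79% to 16.6% of the pair formed with mt-Co1. Reads cannot be assigned to one of 2 identical sequences, so the values of these copies and of their mitochondrial partners are uncertain one by one. Summed, the mitochondrial genes and their copies held 9.83%, 6.17%, 7.67% and 12.99% of the counts, a mean of 9.17% ± 2.96.

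Marker lists for 26 compartments, cell types and organelle classes, with 551 genes that do not repeat between lists, held 27.7% ± 3.43 of all counts. Among these lists, skeletal muscle had the highest mean share of counts, at 7.88% ± 4.82, but was the highest list in replicates 2 and 4 only. Mitochondrially encoded genes were highest in replicate 1 and ribosomal proteins in replicate 3. With their nuclear copies, which were in no list, mitochondrial genes held a mean of 9.17% ± 2.96, more than muscle. In replicate 4 they then held 12.99%, against 10.6% for muscle. Without replicate 2, muscle held 6.17% and mitochondrially encoded genes 6.58%. As a share of TPM, muscle held 7.39%, mitochondrially encoded genes 8.52% and ribosomal proteins 14.1%. Over 4 libraries, mitochondrially encoded genes held 5.98% ± 1.89 and cytosolic ribosomal proteins 5.84% ± 1.53. The 4 epidermal lists together held 5.02% ± 0.981, the fat lists 1.12% ± 0.114, the dermal lists 0.775% ± 0.3202, the hair follicle lists 0.511% ± 0.1199 and the immune lists 0.165% ± 0.0345. Of the hair follicle share, Krt15, which the basal epidermis also makes, held 0.371%. The order of the lowest lists follows the number and kind of genes written into each list and cannot be read as an order of cell numbers.

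**Figure D1:**
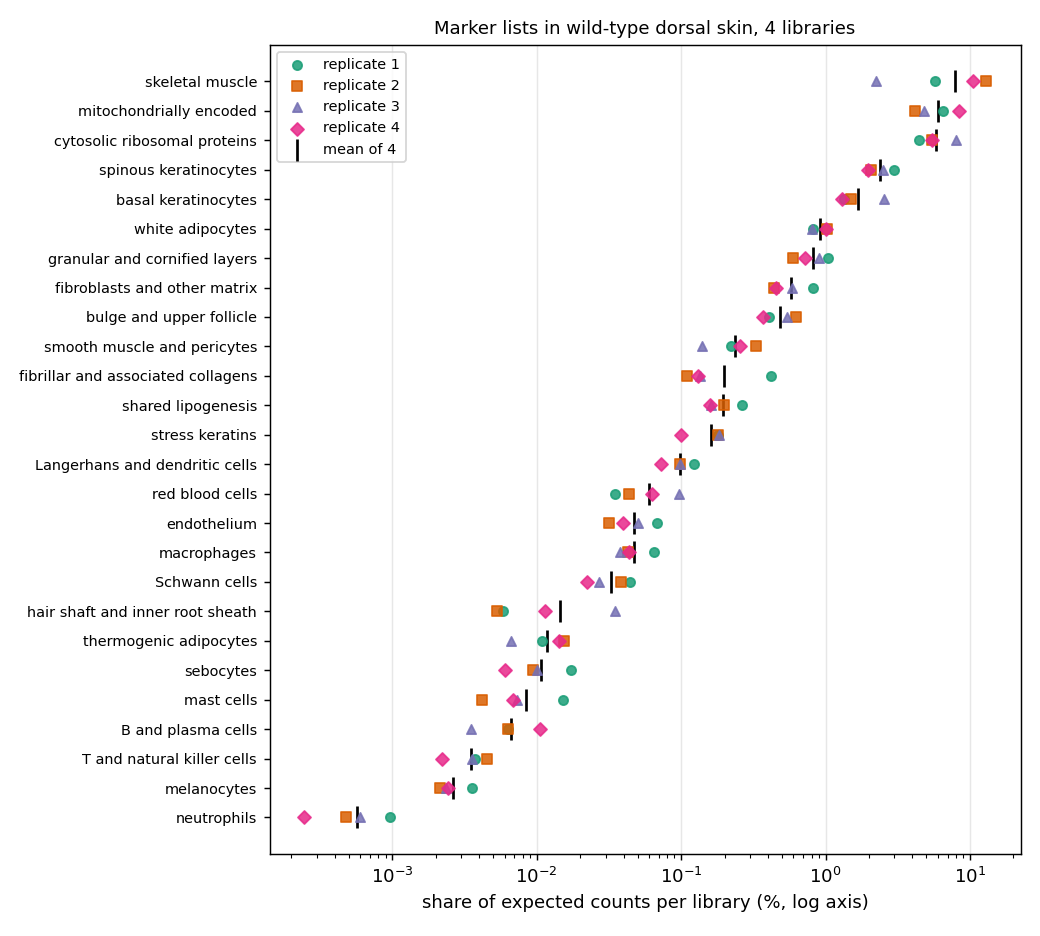
Share of expected counts (percent, log axis) held by each of 26 marker lists in the 4 wild-type libraries; each symbol is 1 library and the black bar is their mean. Skeletal muscle ran from 2.25% in replicate 3 to 13% in replicate 2, while white adipocytes ran only from 0.804% to 1.02%.

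Skeletal muscle genes were abundant and varied widely between libraries. The list of 47 genes held 5.702%, 13%, 2.25% and 10.6% of the counts. Acta1 stood at 8485, 19180.1, 2997 and 13641 TPM. Tnnt3, which ties the troponin complex to the thin filament in fast fibres, stood at 6317, 12962, 2244 and 10839.5 TPM. Ckm, which regenerates ATP from creatine phosphate, stood at 5194, 12837, 1931 and 8568 TPM. In all 3 genes replicate 2 was highest, then replicate 4, then replicate 1, and replicate 3 was lowest.

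The summed TPM of the list was 5.86 times higher in replicate 2 than in replicate 3, and 2.17 times between the highest and lowest library when replicate 3 was left out. Of 46 members at a mean TPM of at least 1, 35 followed the full order of replicates 2, 4, 1 and 3, and 43 were lowest in replicate 3. Of 3 members chosen after their values were seen, Myh4, the myosin heavy chain of the fastest fibres, stood at 2256, 5669.7, 734 and 3727 TPM and Pvalb, the calcium buffer parvalbumin, at 2409.6, 5983, 1199 and 5054 TPM. Myh7, the myosin heavy chain of slow fibres, stood at 0.10, 0, 1.54 and 0.68 TPM.

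**Figure D2:**
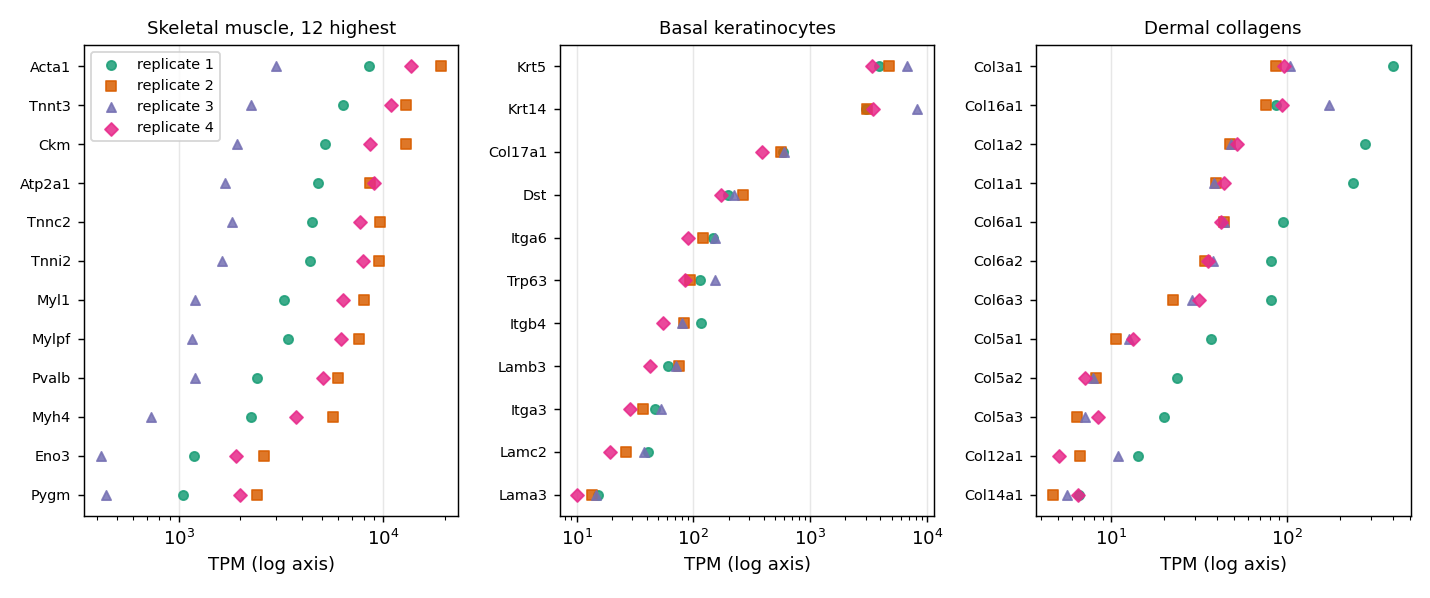
TPM (log axis) of the 12 skeletal muscle genes with the highest mean, the basal keratinocyte list and the collagen list; each symbol is 1 library. Replicate 3 is lowest for every muscle gene drawn, Krt14 in replicate 3 lies at 8288 TPM, and Col1a1, Col1a2 and Col3a1 in replicate 1 lie far above the other 3 libraries.

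Basal keratinocyte markers were all detected, and Krt5 and Krt14 led them. This keratin pair forms the intermediate filaments of the basal layer. Krt5 (chr15:101707070-101712898, minus strand) stood at 3919.6, 4708, 6777 and 3389.8 TPM and Krt14 (chr11:100203162-100207548, minus strand) at 3037, 3066, 8288 and 3442 TPM. Replicate 3 was highest for both, and for Krt14 the other 3 libraries lay within 3037 to 3442 TPM. The list held 1.34%, 1.495%, 2.54% and 1.29% of the counts. Its summed TPM differed 2.13 times between the highest and lowest library, and 1.17 times without replicate 3. Most of this list was Krt5 and Krt14, which held a mean of 0.764% and 0.443% of the counts, out of 1.67% for the list.

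Col17a1, the hemidesmosomal collagen, stood at 584, 558, 603 and 390.4 TPM and Dst, which links keratin filaments to the hemidesmosome, at 199.5, 266, 225 and 171 TPM. Itga6, the integrin subunit of the same anchoring structure, stood at 149, 120.3, 154 and 90.04 TPM, and Trp63, the transcription factor p63 of stratified epithelia, at 114, 94.05, 154 and 85.4 TPM. Replicate 3 was highest for Col17a1, Itga6 and Trp63 but not for Dst. Replicate 3 was highest for 6 of the 11 list genes, and replicate 4 was lowest for 10 of them. Replicate 3 also had the lowest skeletal muscle share and the highest ribosomal RNA share, and the part of either in its basal keratin levels was not tested.

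Spinous keratinocyte markers held 2.99%, 2.06%, 2.51% and 1.96% of the counts. This was more than the basal list in replicates 1, 2 and 4, while in replicate 3 the basal list was slightly higher, at 2.54%. In summed TPM the spinous list, with 20 genes against 11, was higher in replicate 3 too, at 27938 against 16457. Krtdap, a small secreted protein of differentiating keratinocytes, led at 6919.6, 4579, 7144 and 5784 TPM. Krt10, which replaces Krt14 as cells leave the basal layer, stood at 4471, 2716, 2044 and 2123 TPM. Lgals7, a galectin of stratified epithelia, stood at 2002, 2171, 4204 and 2168 TPM and Sbsn, suprabasin, at 2562, 2429, 2964 and 2126 TPM. Krt10 was highest in replicate 1 and Lgals7 in replicate 3, so members of the list did not share 1 order.

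Granular and cornified layer markers held 1.04%, 0.594%, 0.907% and 0.726%. Lor, which encodes loricrin, a major building block of the cornified envelope, stood at 2189.9, 1489, 1808 and 1564 TPM. Lce1m, a late cornified envelope protein, stood at 1578, 883, 1859 and 1235 TPM and Crct1, a gene of the same epidermal cluster, at 766, 466, 725 and 606 TPM. Ly6g6c stood at 785, 693, 576 and 579.9 TPM. Of 40 members at a mean TPM of at least 1, 25 were highest in replicate 1 and 30 lowest in replicate 2. Over the background genes these shares were 49.6% and 22.5%. The stress keratins Krt6a, Krt16 and Krt17 are made in hair follicles and in injured epidermis. Krt17 stood at 1159, 1019, 1043 and 638 TPM, Krt6a at 368, 447, 318 and 125 TPM and Krt16 at 25.01, 11.6, 38.5 and 11.7 TPM, and replicate 4 was lowest or next to lowest for each.

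The keratin family as a whole held 2.81% ± 0.547 of the counts, with 54 genes in the tables. Of these, 11 had a mean TPM of at least 100, 18 reached a TPM of 1 in all 4 libraries and 26 had a mean below 1. By mean TPM the order was Krt5 (4698 ± 1488), Krt14 (4458 ± 2559.6), Krt15 (3048 ± 949), Krt10 (2839 ± 1129), Krt77 (1836 ± 575), Krt17 (965 ± 226) and Krt1 (616 ± 134). The ranges of Krt5, Krt14, Krt15 and Krt10 overlapped, so their order is not resolved by 4 libraries. Krt77, another type II keratin of suprabasal cells, stood at 2670.2, 1762, 1477 and 1435 TPM, above Krt1, the usual partner of Krt10, at 691, 473, 764 and 538 TPM, with no overlap. Keratins of simple epithelia were chosen for mention after their values were seen. Krt8 stood at 0.88, 0.63, 5.34 and 0.81 TPM, Krt18 at 0.26, 0.22, 5.45 and 0.63 TPM and Krt19 at 1.71, 1.43, 7.41 and 1.25 TPM, each highest in replicate 3.

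**Figure D3:**
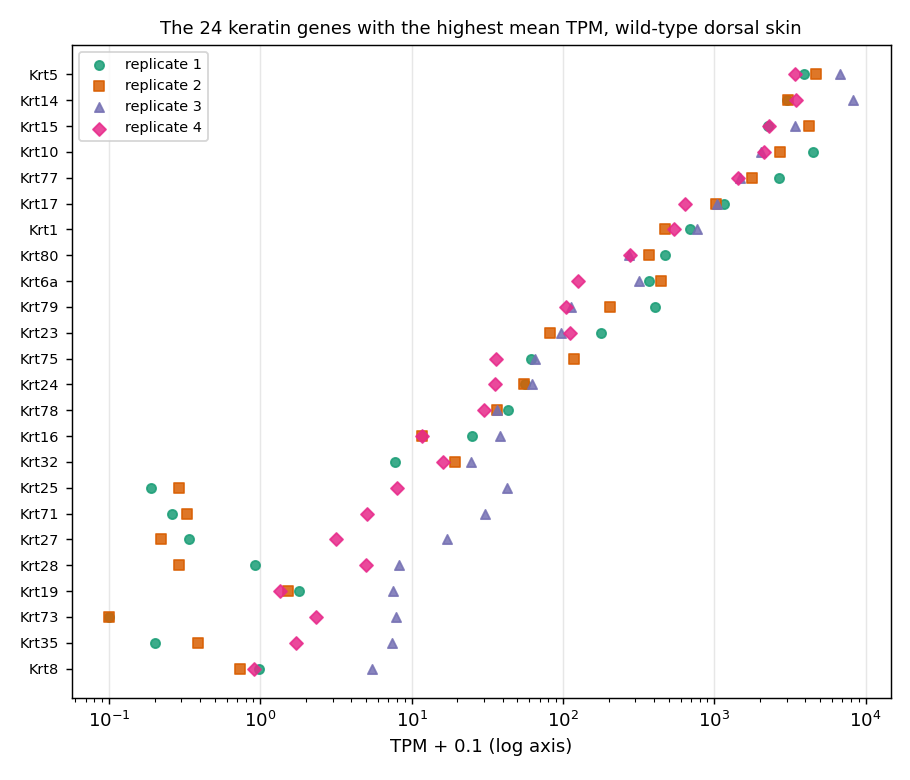
TPM + 0.1 (log axis) of the 24 keratin genes with the highest mean TPM; each symbol is 1 library. Krt14 differs 2.73 times between the highest and lowest library and Krt6a 3.57 times, while Krt25, Krt71, Krt27, Krt28, Krt73 and Krt35 are near 0 in replicates 1 and 2 and highest in replicate 3.

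Promoter sequence was read for genes with a RefSeq window (GRCm38.p6) from 250 bases before the annotated start to 50 after it. The motif TATAAA, the core of the TATA box, was searched on the sense strand only. The whole motif had to lie 20 to 40 bases before the start, which puts its first base at 26 to 40. It did so in 13 of 36 keratin genes with a window (36.1%), and in 11 of 38 genes of the granular and cornified list (28.9%). The share over all 27025 genes with a window was 2.09%, over genes at a TPM of at least 1 in all 4 libraries 1.36%, and over the 100 highest genes with a window 7%. Keratin genes and cornified envelope genes lie in clusters of related copies, so members share ancestry and are not independent. The 100 bases before the start are shown for 3 abundant epidermal genes with the motif in that interval, and for Krt5 and Ckm, which were also abundant and lack it in the whole window. The RefSeq start can lie away from the end of the GENCODE gene, as it does for Ckm. Capitals mark TATAAA.
Krtdap (chr7:30787805-30787904, plus strand): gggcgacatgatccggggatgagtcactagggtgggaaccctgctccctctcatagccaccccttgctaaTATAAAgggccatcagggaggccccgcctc
Krt10 (chr11:99389365-99389464, minus strand): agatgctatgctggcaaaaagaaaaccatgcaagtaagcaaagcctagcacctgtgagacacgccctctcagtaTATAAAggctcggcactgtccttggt
Lor (chr3:92083143-92083242, minus strand): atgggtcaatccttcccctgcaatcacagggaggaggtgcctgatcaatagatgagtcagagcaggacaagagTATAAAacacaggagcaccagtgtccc
Krt5 (chr15:101712906-101713005, minus strand): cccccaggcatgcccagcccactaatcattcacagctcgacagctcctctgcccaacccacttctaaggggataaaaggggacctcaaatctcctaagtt
Ckm (chr7:19410994-19411093, plus strand): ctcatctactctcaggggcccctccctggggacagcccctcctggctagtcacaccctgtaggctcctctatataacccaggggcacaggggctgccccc
The motif began 30 bases before the start in Krtdap, 26 in Krt10 and 27 in Lor. Only the exact letters were searched, so near matches, which the Krt5 and Ckm sequences hold, were not counted. The absence of these letters from the Krt5 and Ckm windows says nothing about which factors bind there.

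Hair follicle keratins were low and uneven. The hair shaft and inner root sheath list, with 85 genes that include the keratin-associated proteins, held 0.00582%, 0.005297%, 0.0351% and 0.0114% of the counts. Krt25, a keratin of the inner root sheath, stood at 0.09, 0.19, 42.7 and 7.96 TPM and Krt71, its type II counterpart, at 0.16, 0.23, 30.3 and 5 TPM. Krt32, a hair cuticle keratin, stood at 7.68, 19.3, 24.6 and 16.1 TPM, and Krtap3-2, which crosslinks hair keratins, at 21.3, 5.9, 15.9 and 10.99 TPM. Without replicate 3 the mean share of the list fell from 0.0144% ± 0.0141 to 0.007496%. Of 20 members at a mean TPM of at least 1, 19 were highest in replicate 3, and Krtap3-2 was the exception, highest in replicate 1. Inner root sheath keratins are made in growing follicles, and the labels give no hair cycle stage.

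Markers of the bulge and upper follicle were more even than the hair shaft list. Their summed TPM differed 1.87 times between the highest and lowest library, against 5.41 times. Most of this list was Krt15, which held a mean of 0.371% of the counts, out of 0.486% for the list. Krt15, a keratin of the bulge and also of the basal epidermis, stood at 2266, 4221, 3418 and 2288 TPM. Krt79, of the upper follicle canal, stood at 404, 204, 113 and 104 TPM. Cd34, which marks bulge cells but also vessels and fibroblasts, stood at 154, 123, 100.4 and 70.9 TPM, and Krt75, of the companion layer, at 61.5, 117, 65.6 and 36.2 TPM. Krt79 and Cd34 were highest in replicate 1, and Krt15 and Krt75 in replicate 2. Sebocyte genes were low, with Far2, which makes fatty alcohols for wax, at 30.02, 14.4, 14.6 and 8.85 TPM, Scd3, a sebaceous desaturase, at 20.2, 13.8, 4.52 and 3.17 TPM and the wax synthase gene Awat1 at 12.2, 5.82, 8.82 and 3.44 TPM.

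Dermal matrix genes were highest in replicate 1. Col3a1, collagen III, stood at 403, 86.9, 104 and 95.9 TPM. Col1a2 stood at 277, 47.5, 47.9 and 51.6 TPM and Col1a1 at 238, 39.7, 38.6 and 43.9 TPM, the 2 chains of collagen I. In replicates 2, 3 and 4 each of the 3 genes lay within a narrow range, and replicate 1 lay far above it. Col16a1 stood at 86.6, 75.6, 172 and 93.3 TPM and was the single member of the 12-gene collagen list that was highest in another library, replicate 3. The list held 0.4201%, 0.111%, 0.136% and 0.1305% of the counts. The mean share was 0.199% ± 0.148 over 4 libraries and 0.126% without replicate 1. Its summed TPM differed 3.53 times between the highest and lowest library, and 1.34 times without replicate 1.

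Other genes of fibroblasts and matrix showed the same library, replicate 1, on top in 27 of 30 members. Replicate 1 was on top in 49.6% of the background genes. Dcn, the small proteoglycan decorin, stood at 569, 125, 189.7 and 161 TPM and Sparc, a collagen-binding matrix protein, at 523, 235, 266 and 241 TPM. Postn, periostin, stood at 454, 383, 389 and 255 TPM. Gsn, the actin-severing protein gelsolin, led the list at 1691, 1031, 1229.5 and 903 TPM but is made by many cell types. The list held 0.823%, 0.44%, 0.582% and 0.457%. Collagen levels were low beside those of the epidermis: the mean TPM was 172 ± 154 for Col3a1 and 2839 ± 1129 for Krt10, with no overlap between libraries.

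As a share of counts, white fat was the most even of the 7 highest lists in the plot of shares. This rank depended on the scale. On TMM-scaled CPM (counts scaled to library size) the spinous list differed 1.29 times between the highest and lowest library and white fat 1.45 times. With muscle genes left out of the TPM total the values were 1.36 and 1.37. By the mean of log2(TPM + 1) over members they were 1.56 and 1.10. Its list held 0.818%, 1.02%, 0.804% and 1.004% of the counts, with summed levels of 8021, 10197, 8292 and 8791 TPM. Car3, carbonic anhydrase III, stood at 2888, 4884, 1553 and 3845 TPM and followed the order of the muscle genes, in which it is also made. Without Car3 the list held 0.499%, 0.479%, 0.612% and 0.522%. Cfd, the secreted protease adipsin, stood at 1762, 2473, 2648 and 1755 TPM, Fabp4, which carries fatty acids within the cell, at 1407, 1029, 2208 and 1447 TPM and Adipoq, adiponectin, at 320.2, 251, 314 and 263 TPM. Replicate 3 was highest for Cfd and Fabp4, and Adipoq varied by 12.2% of its mean. Ucp1, the uncoupling protein that defines thermogenic fat, stood at 0, 0, 0 and 0.10 TPM. Cox8b, listed with thermogenic fat but also made in muscle, stood at 462, 778, 163 and 699.8 TPM, in the order of the muscle genes. Scd1, a fatty acid desaturase of both sebocytes and fat, stood at 413, 274, 219 and 218 TPM.

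Marker genes of vessels, nerve and pigment cells were detected. Acta2, smooth muscle actin, stood at 170.2, 141, 163 and 108 TPM and Tagln, transgelin, at 81.5, 68.8, 89.99 and 70.9 TPM. Des, desmin, which skeletal muscle also makes, led the smooth muscle list at 461, 979.8, 182 and 649 TPM in the order of the muscle genes, and without it the list held 0.125%, 0.121%, 0.09704% and 0.101%. The endothelial list held 0.0683%, 0.0316%, 0.04997% and 0.0397%. Egfl7 stood at 54.9, 37.04, 70.2 and 58.4 TPM, Plvap, of fenestrated vessels, at 62.3, 33.3, 51.2 and 32.8 TPM and Pecam1, of endothelial junctions, at 35.9, 16.1, 24.3 and 19.4 TPM. Of 18 endothelial members at a mean TPM of at least 1, 13 were highest in replicate 1 and 13 lowest in replicate 2. Over the background genes these shares were 49.6% and 22.5%. Ccl21a, a chemokine of lymphatic vessels, stood at 149, 28.8, 17.4 and 10.9 TPM. It has near-identical copies, among them Ccl21b at 79.6, 0, 10.2 and 0 TPM, so its level is uncertain. The Schwann cell list held 0.04401%, 0.0383%, 0.02697% and 0.0222% of the counts, more in replicates 1 and 2 than in replicates 3 and 4. Dct, a melanin enzyme, stood at 16.5, 11.2, 8.53 and 8.68 TPM, while Tyr, the enzyme that starts melanin synthesis, stood at 0.20, 0.04, 0.07 and 0.14 TPM.

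Immune genes were led by those of antigen presentation. The 6 immune lists together held 0.215%, 0.157%, 0.151% and 0.137% of the counts. Cd74, the invariant chain of class II molecules, stood at 628, 489, 421 and 313 TPM, and H2-Ab1, a class II chain, at 359, 286, 309.7 and 214 TPM. Cd207, langerin, which defines Langerhans cells, stood at 18.1, 13.3, 9.72 and 4.89 TPM. All 7 members of this list at a mean TPM of at least 1 were highest in replicate 1 and lowest in replicate 4. Over the background genes these shares were 49.6% and 32.4%. Lyz2, lysozyme of macrophages, stood at 206, 134, 96.3 and 116 TPM and C1qa, of complement, at 87.6, 77.6, 52.1 and 66.9 TPM. Mcpt4, a mast cell protease, stood at 74.6, 22.1, 31.9 and 28.02 TPM and Cma1, a mast cell chymase, at 36.7, 7.24, 11.1 and 11.1 TPM, and all 7 mast cell members at that level were highest in replicate 1. Cd3e, of the T cell receptor complex, stood at 3.92, 4.16, 4.12 and 2.48 TPM. Of 10 genes in the neutrophil list, 3 had a mean TPM of at least 1 and 1 reached a TPM of 1 in all 4 libraries. The highest were S100a9 at 11.6, 6.08, 3.36 and 1.11 TPM and S100a8 at 9.75, 6.49, 1.21 and 0 TPM, both lowest in replicate 4. Which cells of the skin made these 2 genes was not tested. Hbb-bs, beta globin of red blood cells, stood at 343, 381, 749 and 484 TPM, and all 5 red blood cell genes were highest in replicate 3 and lowest in replicate 1.

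Cytosolic ribosomal protein genes held 4.47%, 5.42%, 8.04% and 5.43% of the counts, and 83 of 87 members at a mean TPM of at least 1 were highest in replicate 3. Rplp1 led at 4129, 4776, 6527 and 4164 TPM. Immediate early and heat shock genes, many of which can be induced within minutes of a stimulus or of handling, held 1.52%, 0.535%, 2.24% and 1.15%. This share is not a reading of induced RNA alone. Fos, a subunit of the AP-1 factor, stood at 1170.0, 126, 1718 and 801 TPM, Junb at 742, 219, 1150.1 and 466 TPM and the heat shock protein Hspb1 at 1770.3, 1410.3, 2111 and 1544 TPM. Hspb1 varied less between libraries than Fos and Junb. Replicate 2 was lowest for Fos, Junb and Hspb1, and for 17 of 29 members. How long each tissue was handled is not given, and its part in these levels was not tested.

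The circadian clock list was, as a share of counts, the most even of the lists, at 0.158%, 0.159%, 0.157% and 0.156%. Its summed TPM ranged more widely, at 695, 754, 657 and 672. Dbp, a clock output factor with a strong daily rhythm, stood at 135, 228, 192 and 200.3 TPM, Nr1d1 at 127, 152, 122 and 128 TPM and Per1, which is also an immediate early gene, at 136, 79.6, 90.3 and 74.4 TPM. Single members varied more than the sum, with a median CV (the SD as a percent of the mean) of 18.7%. The median over all 15114 genes at a mean TPM of at least 1 was 23.4%. Proliferation genes held 0.0239%, 0.0316%, 0.0298% and 0.0388%. Top2a, a topoisomerase of dividing cells, stood at 16.5, 9.64, 25.1 and 21.2 TPM and Ube2c, of the mitotic ubiquitin ligase pathway, at 63.5, 132, 48.6 and 123 TPM. Ube2c followed the order of the muscle genes, while 10 of 14 members at a mean TPM of at least 1 were highest in replicate 3 and 9 were lowest in replicate 2.

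Hox genes give cells a record of their position along the body axis, with low paralogue numbers towards the head and high numbers towards the tail. Of 27 Hox genes of paralogue groups 1 to 9, 23 had a mean TPM of at least 1, and their sums were 144.8, 210.0, 163.2 and 170.5 TPM. Of 12 genes of groups 10 to 13, 2 did, 6 had no count in any library, and the sums were 7.48, 7.81, 11.7 and 10.3 TPM. The 2 groups of sums did not overlap. Hoxa7 was the highest at 20.4, 36.2, 26.7 and 24.2 TPM, then Hoxa5 at 10.8, 22.4, 10.99 and 16.3 TPM, Hoxc6 at 12.4, 17.4, 11.7 and 13.4 TPM and Hoxd8 at 13.2, 17.9, 6.97 and 13.6 TPM. The ranges of Hoxa5, Hoxc6 and Hoxd8 overlapped. In the posterior groups the 2 genes were Hoxc13, which also acts in hair follicles throughout the body, at 5.84, 5.69, 10.4 and 7.88 TPM, and Hoxa10 at 0.81, 1.71, 0.50 and 2.03 TPM. The library preparation did not keep strand, so reads of Hox genes and of the antisense RNAs of their clusters cannot be told apart.

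**Figure D4:**
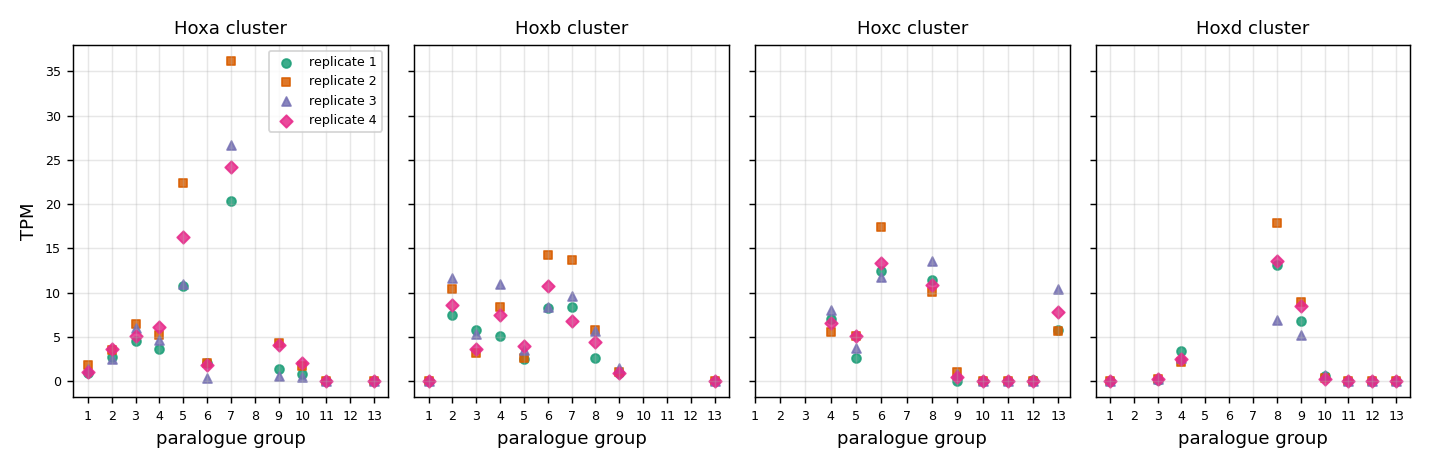
TPM of each Hox gene by paralogue group (x axis) in the 4 clusters; each symbol is 1 library. Levels concentrate in groups 2 to 9, Hoxa7 is highest, and of groups 10 to 13 Hoxc13 stands above the rest.

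The tissue label was checked against genes of other organs. The list of 12, among them Alb of liver, Sftpc of lung and Myh6 of heart, had 5 genes with no count in any library and none at a mean TPM of 1, and Alb stood at 0.73, 0.73, 0.78 and 0.46 TPM. Xist, the RNA of the inactive X chromosome, stood at 62.5, 44.7, 84.8 and 76.4 TPM, and the Y-linked genes Ddx3y, Eif2s3y, Kdm5d and Uty had 0 counts in each library. A count of 0 allows up to 3 counts, or 0.122, 0.130, 0.146 and 0.128 CPM (counts scaled to library size) in the 4 libraries. Tph1, whose enzyme starts serotonin synthesis in peripheral tissues, was near the limit of detection, at 0.35, 0, 1.06 and 0.41 TPM from 18, 0, 27 and 11 expected counts.

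The spread between libraries was measured gene by gene. Over 8226 genes with a mean TPM of at least 10, the median CV was 19.7%, with quartiles of 13.7% and 28.4%. Counting alone would give a median of 3.07% at these counts. A CV over 50% was found for 576 genes (7.002%) and one under 10% for 877 (10.7%). The common biological coefficient of variation that edgeR estimated from rounded expected counts of 15367 genes was 0.277.

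Among 7770 genes at that level, without predicted genes and pseudogenes, Timm10, a chaperone of mitochondrial import, varied least, at 28.4, 28.2, 28.8 and 28.9 TPM (CV 1.196%). Map2k7, a kinase of the JNK pathway, stood at 35.2, 36.2, 36.3 and 36.5 TPM, Sbf1 at 106, 102, 102 and 103 TPM, Ube2m, of the neddylation pathway, at 138, 144, 142 and 141 TPM and the proteasome subunit Psma3 at 183, 176, 177 and 182 TPM. The usual reference gene Gapdh, chosen for mention after its values were seen, stood at 2752, 5628, 1562 and 5107 TPM, in the order of the muscle genes.

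At the other end, 10 of the 15 largest CVs belonged to short RNA genes whose TPM rested on few counts. Mir697, for example, reached 63.9 TPM in replicate 2 from 4 counts. Among protein-coding genes with a mean of at least 100 counts, a limit set after the data were seen, Ccl21b, Krt25 and Ccl7 varied most. Ccl7, a chemokine for monocytes, stood at 50.8, 3.15, 5.19 and 2.02 TPM and Fosl1, an AP-1 subunit, at 36.5, 3.83, 7.9 and 1.77 TPM, both highest in replicate 1. Pyy, which encodes the gut peptide YY, stood at 10.2, 2.47, 101.4 and 26.9 TPM and Gjb2, the gap junction protein connexin 26, at 2.21, 2.34, 28.96 and 6.56 TPM, both highest in replicate 3, like Krt25.

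Ranges were counted over 7643 protein-coding genes with a mean TPM of at least 10 and a mean of at least 100 counts. Predicted genes and pseudogenes were left out. Of the 7643, 1458 (19.1%) differed at least 2-fold between the highest and lowest library. Of these, 340 (23.3%) followed the muscle order of replicates 2, 4, 1 and 3, the most frequent of the 24 possible orders. The muscle list that defines the order, with 35 of 46 members in it, was not left out of this count. Replicate 1 was the highest library in 723 (49.6%) and replicate 4 in 46 (3.16%). Replicate 3 was the lowest in 558 (38.3%).

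**Figure D5:**
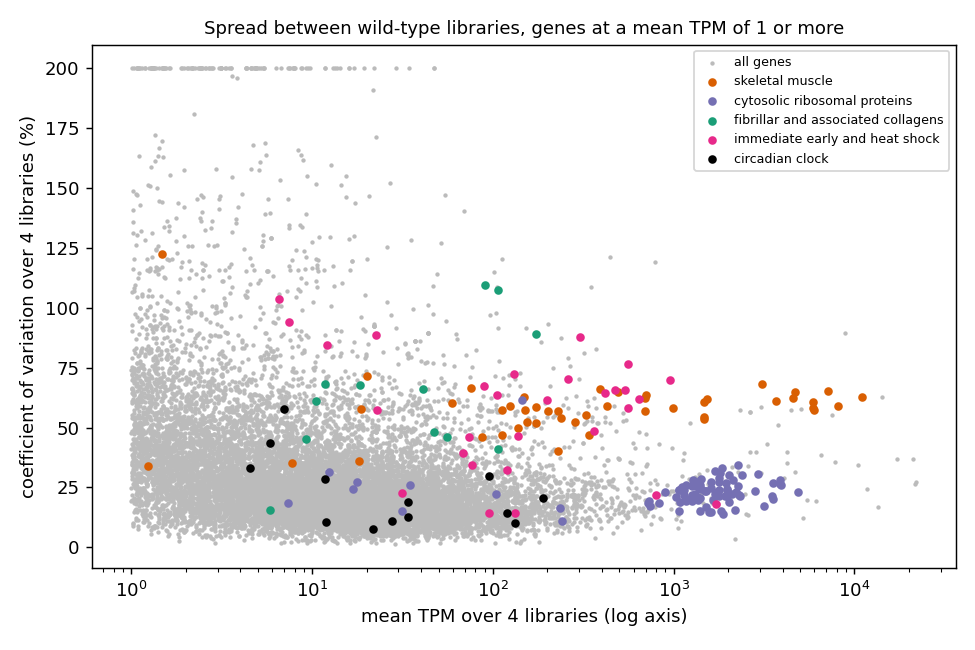
CV over 4 libraries (percent) against mean TPM (log axis) for genes at a mean TPM of at least 1; each point is 1 gene, with 5 lists in colour. The median CV of the members drawn is 58.2% for muscle genes, 63.7% for collagens, 61.96% for immediate early and heat shock genes, 22.97% for ribosomal proteins and 18.7% for clock genes. Over all 15114 genes at that level it is 23.4%, close to the value for ribosomal proteins.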

How the data were processed

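Bulk RNA-seq libraries of wild-type mouse dorsal skin were made, per the labels' protocols, from column-purified total RNA with the unstranded NEBNext Ultra RNA kit. Named in the submitters' processing notes are the build GRCm38, RSEM 1.31, STAR 2.7.6a, DESeq and DESeq2, and the labels name Ensembl release 101. The expected counts in the deposited tables are RSEM estimates and not normalized, and 10.7% to 11.5% of the values in a library were fractional. The deposited TPM values are, per the file headers, corrected for transcript length and for depth. A matrix by the authors holds a normalized signal for 17382 genes and was used only as an alternative scale for the spread. Reads that match more than 1 gene are split by RSEM, so genes with near-identical copies are uncertain.

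Symbols came from the matrix for 17354 identifiers and from a reference table for 37798, and 336 had none. Positions and gene types came from GENCODE release M21 (GRCm38), which held 55227 of the identifiers. Nuclear copies of mitochondrial genes were aligned with BLAST 2.17.0. Shares and CVs were computed in Python 3.11.15. Expected counts were rounded for edgeR 4.0.16 in R 4.3.3 (filterByExpr with a minimum count of 10 and total of 15, TMM, intercept only), which was tested on simulated data, and for DESeq2 1.42.0 as an alternative. The design has 1 group, so no test was made and no p-value is given. Depth was 20531601 to 24678638 expected counts.

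The gene lists, the naming rule and the choice of libraries were made with earlier results of these data known. Genes named were the 30 with the highest mean TPM, up to 4 per list with the highest mean TPM (Hox, sex-linked and other-tissue genes as needed), the 15 largest and 15 smallest CVs at a mean TPM of at least 10 without predicted genes or pseudogenes, and Tph1. Further genes were chosen after their values were seen: Myh4, Myh7, Pvalb, Itga6, Trp63, Krt1, Krt77, Krt8, Krt18, Krt19, Pecam1, Cd207, Tyr, Gapdh, Fosl1, Pyy, Gjb2, Coch, Thbs1, Mup11, Neat1 and Malat1. RefSeq promoter windows (GRCm38.p6) were matched by symbol for 10077 of 13458 genes with a symbol at a TPM of at least 1 in all 4 libraries. Of the genes that the rule names, some are not reported here and were left out of the search for libraries far from the others. Protein sequences were not used here.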

Additional observations from a re-analysis of the deposited data

Results flagged for a closer look

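Over 33 list shares and 171 genes at a mean TPM of at least 1, a library was set against the other 3 by Dixon's criterion for 4 values (the 95% critical value of the gap to the nearest library over the whole range). It singled out 25 of 204, and chance gives about 1 in 20. Some of these genes had been named for their wide spread, so the share is no measure of the libraries. Replicate 1 stood alone in dermal genes: the collagen list held 0.420% of its counts, Col3a1 lay at 403 TPM, Col1a2 at 277, Col1a1 at 238, Sparc at 523 and Dcn at 569. In the same library the lymphatic chemokine Ccl21a lay at 149 TPM and the mast cell proteases Cma1 and Cpa3 at 36.7 and 21.8. The monocyte chemokine Ccl7 lay at 50.8 and Ccl21b, a near-identical copy of Ccl21a, at 79.6. Replicate 3 stood alone in the basal keratinocyte list, with 2.54% of its counts, in Krt14 at 8288 TPM, Lgals7 at 4204, Krt71 at 30.3 and Tpt1 at 6124. Krt5 and Krt14 held most of the counts of that list, and replicate 3 was highest for 6 of its 11 members. In the same library the simple epithelial keratins Krt8, Krt18 and Krt19 lay at 5.34, 5.45 and 7.41 TPM, and Gjb2 at 28.96. The ribosomal RNA gene CT010467.1 lay at 20677 TPM there. Replicate 2 stood alone in Mir697, at 63.9 TPM from 4 counts. Replicate 4 stood alone on the low side in the stress keratin list, with 0.0992% of its counts, in Cidea at 13.4 TPM and in Cd3e at 2.48. Genes of 1 list move together, so these are not 25 separate events, and what made the libraries differ was not tested.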

How the results depend on the processing

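No paired analysis was possible because no comparison between groups was made. Leaving out each library in turn gave 13599 to 13729 genes detected, a top 30 share of 15.8% to 17.9%, a share of all lists of 26.5% to 28.9%, a skeletal muscle share of 6.17% to 9.76%, a muscle range of 2.17 to 5.86 times, a biological coefficient of variation of 0.259 to 0.305 and a median likeness of 0.938 to 0.952. The lowest muscle range was the one without replicate 3. The top 30 share was 13.6% without mitochondrially encoded genes and 13.5% without these and their nuclear copies. The share of all lists was 36.8% of TPM, 23.1% without mitochondrially encoded genes and 21.5% without muscle genes. The coefficient of variation was 0.343 with no filter and 0.183 as the median DESeq2 gene-wise estimate. The median correlation between libraries was 0.947, against 0.908 with a pseudocount of 0.1, 0.980 over all genes and 0.913 at a mean TPM of at least 10. The median CV was 16.6% on TMM-scaled CPM, 17.6% in the authors' matrix and 42.7% with no filter. Of the top 30, 22 stayed when ranked by mean CPM. The alternatives without muscle genes, without nuclear copies, without Car3, Des, Cox8b or Gsn, and the limit of 100 counts were chosen after seeing the data. Depth limits low genes most: at 3 counts a level is not told from 0.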

Other observations

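Of 19 transcription factors of the epidermis, 18 reached a TPM of 1 in all 4 libraries. Klf4, a factor of barrier formation, stood at 399.8, 185, 233 and 174 TPM, highest in replicate 1. Hopx stood at 171, 181, 217 and 136 TPM, Cebpa at 190.0, 139, 186 and 145 TPM and Cebpb at 143, 119, 142 and 103 TPM. The list of 19 factors held 0.301%, 0.215%, 0.303% and 0.225% of the counts. Tbx15, a patterning factor of dorsal skin that muscle also makes, stood at 30.9, 49.5, 15.2 and 42.7 TPM, in the order of the muscle genes, while En1 stood at 1.71, 0.56, 1.16 and 1.07 TPM.

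Neat1 and Malat1, long RNAs kept in the nucleus and chosen for mention after their values were seen, stood at 673, 719, 565 and 796 TPM and 129.6, 57.2, 146 and 87.8 TPM. Mup11, which belongs to a family of near-identical genes for major urinary proteins and is therefore uncertain, stood at 44.7, 130.3, 7.31 and 14.99 TPM. Coch, which encodes the matrix protein cochlin, stood at 45.6, 12.8, 3.15 and 1.92 TPM, highest in replicate 1, and Thbs1, thrombospondin 1, at 121, 13.03, 38.7 and 14.1 TPM, also highest in replicate 1. The reporter sequence eGFP, listed in the tables, had 0 counts in all 4 libraries.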
